A study of Caenorhabditis elegans with 43 samples.

Results

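Messenger RNA of 9 regulators of the mitochondrial unfolded protein response (mitoUPR) was followed in whole *C. elegans* of 8 genotypes. The genes are *atfs-1*, *zip-3*, *haf-1*, *dve-1*, *ubl-5*, *lin-65*, *met-2*, *jmjd-1.2* and *jmjd-3.1*. They were found by symbol in the normalized filtered table, in which all 9 had a row among 13837 genes. The rule of choice used no measured value, but the members were chosen with earlier results of these data known. Each mutant was compared with wild-type worms of its own sequencing batch.

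All worms were prefertile young adults, grown on NGM plates with OP50 bacteria at one temperature, and each library came from a plate of synchronized whole animals. Batch 2 held *nuo-6* (n = 6) and wild-type (n = 6). Batch 3 held *nuo-6;atfs-1* (n = 3), *atfs-1* (n = 3) and wild-type (n = 3). Batch 1 held an *atfs-1* deletion (n = 3), *atfs-1(et15)* (n = 5), *atfs-1(et17)* (n = 6), *nuo-6;hif-1* (n = 2), *hif-1* (n = 3) and wild-type (n = 3). In the study's strain list the alleles are *nuo-6(qm200)*, a mild mutation in a subunit of complex I of the respiratory chain, *hif-1(ia4)*, a deletion in the gene of the hypoxia-inducible factor, and gk3094 as the sole deletion of *atfs-1*. The *et15* and *et17* alleles are gain-of-function point mutations in the part of ATFS-1 that targets it to mitochondria. The *nuo-6;atfs-1* libraries carry only the code NA238, which was read as this double mutant, the batch 3 labels give *atfs-1* with no allele, and the batch 1 labels give a deletion with no allele. Every value of the double mutant rests on that reading.

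The mitoUPR is a transcriptional program that cells switch on when their mitochondria import or fold proteins poorly. ATFS-1, a bZIP transcription factor, is imported into healthy mitochondria and degraded there. When import falters it moves to the nucleus and induces chaperones such as *hsp-6*, the mitochondrial Hsp70, whose promoter is the standard reporter of the response. HAF-1 is a peptide transporter of the mitochondrial inner membrane, and DVE-1 and UBL-5, a homeodomain protein and a ubiquitin-like protein, act together in the nucleus. MET-2, a histone methyltransferase, and LIN-65 reorganise chromatin when mitochondria are stressed early in life, while JMJD-1.2 and JMJD-3.1 are histone demethylases required for the response. ZIP-3 is a bZIP protein that represses it. Much of this regulation acts on protein import, localisation and chromatin, none of which is measured by mRNA.

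Between 21466920 and 48493377 reads were counted on genes per library, and the lowest count of a regulator in any library was 70 reads (*haf-1*). The mutated genes fitted the labels where a count can check them. *atfs-1* had 24.5 to 30.3 CPM in the 9 libraries read as carrying its deletion, against 55.3 to 89.8 CPM in the 12 wild-type libraries. *hif-1* had 18.5 to 43.4 CPM in the 5 libraries that lack functional *hif-1*, against 191 to 220 CPM in wild-type worms of batch 1. *nuo-6* itself had 122 to 214 CPM in *nuo-6*, against 114 to 141 CPM in wild-type worms of batch 2. It had 132 to 173 CPM in *nuo-6;atfs-1*, against 139 to 170 CPM in batch 3. In *nuo-6;hif-1* it had 109 and 157 CPM, against 118 to 131 CPM in batch 1. Point mutations are not checked by a gene's count, and the *nuo-6* mutation of the double mutants was not checked.

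Several libraries stood apart in ways that bear on the results. The pairs 1 and b, 2 and bl, and 3 and r of the *atfs-1* libraries of batch 1 and batch 3 were each other's most similar libraries by Pearson's r of their deviations (0.959, 0.972 and 0.971). In a chi-square test of their reads, pairs 2 and bl and 3 and r differed by 9.79 and 9.80 per degree of freedom, less than the closest pair within any group (23.3) but more than sampling noise. Pair 1 and b differed by 66.2, and by this test deletion library 1 was closer to library 2 of its own group (37.9). All were kept apart, since the labels do not say whether they share RNA. The batch 1 deletion set is therefore also given against wild-type worms of batch 3. Transcripts that mark developmental stage also differed between groups, although all worms were labelled as 1 stage. An index, called the stage index, was made from 42 yolk, oocyte, sperm and molting genes, with low values for little yolk and many molting transcripts. It ran between -15.6 and -4.53 in *atfs-1(et15)* and between -14.2 and -11.5 in *nuo-6;hif-1*, against -2.12 to 9.202 in wild-type worms of batch 1. All 6 yolk genes were lower in both strains (limma), with summed levels of 1674 to 14384 CPM in *et15* and 2005 to 8199 CPM in *nuo-6;hif-1*, against 27022 to 76683 CPM in wild-type worms. Of 14 oocyte genes 7 and 14 were lower, and of 10 molting genes 9 and 8 were higher, in *et15* and in *nuo-6;hif-1*, where 16.4% and 26.2% of all genes were lower and 16.9% and 29.8% higher, and none of these markers was at 0 in any group. Markers of intestine, muscle, neurons and hypodermis were detected in every group of these whole worms. The muscle sum was lower in batch 3 and in the batch 1 deletion set, given with its results. Other sums moved too, in both directions. Adult hypodermis had 2040 to 4453 CPM in *nuo-6*, against 1296 to 1585 CPM in wild-type worms of batch 2. In *et15* it had 460 to 1409 CPM, against 1400 to 2186 CPM in batch 1. Neurons had 178 and 418 CPM in *nuo-6;hif-1*, against 133 to 144 CPM. Intestine had 1068 to 1187 CPM in *nuo-6;atfs-1*, against 1423 to 1475 CPM in wild-type worms of batch 3. Their part in the results was not tested. In whole worms, fewer cells of a type and less RNA per cell cannot be told apart.

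In wild-type worms the 9 regulators covered a wide range of mRNA levels per length of gene. *ubl-5* was highest, at 63.2 ± 16.1 normalized CPM per kilobase of exon (SD, n = 12). *jmjd-1.2* (39.6 ± 5.27), *zip-3* (36.3 ± 7.81), *atfs-1* (35.4 ± 5.22), *met-2* (30.7 ± 9.09) and *lin-65* (23.7 ± 3.72) followed, each overlapping its neighbours in this order of means over 3 batches. The order differed between batches: *met-2* averaged 43.2 in batch 3, above *jmjd-1.2* (41.9), and 25.6 in batch 2, and *zip-3* averaged 42.0 in batch 1 and 27.7 in batch 3. A gap separated these from *dve-1* (7.34 ± 2.28), *jmjd-3.1* (4.65 ± 2.04) and *haf-1* (2.03 ± 0.520), which again overlapped their neighbours. The exons of *ubl-5* cover only 327 bases, against 4131 bases for *met-2*. Over all 43 libraries the coefficient of variation was highest for *jmjd-3.1* (54.4%) and *atfs-1* (52.7%) and lowest for *jmjd-1.2* (18.0%).

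**Figure D1:**
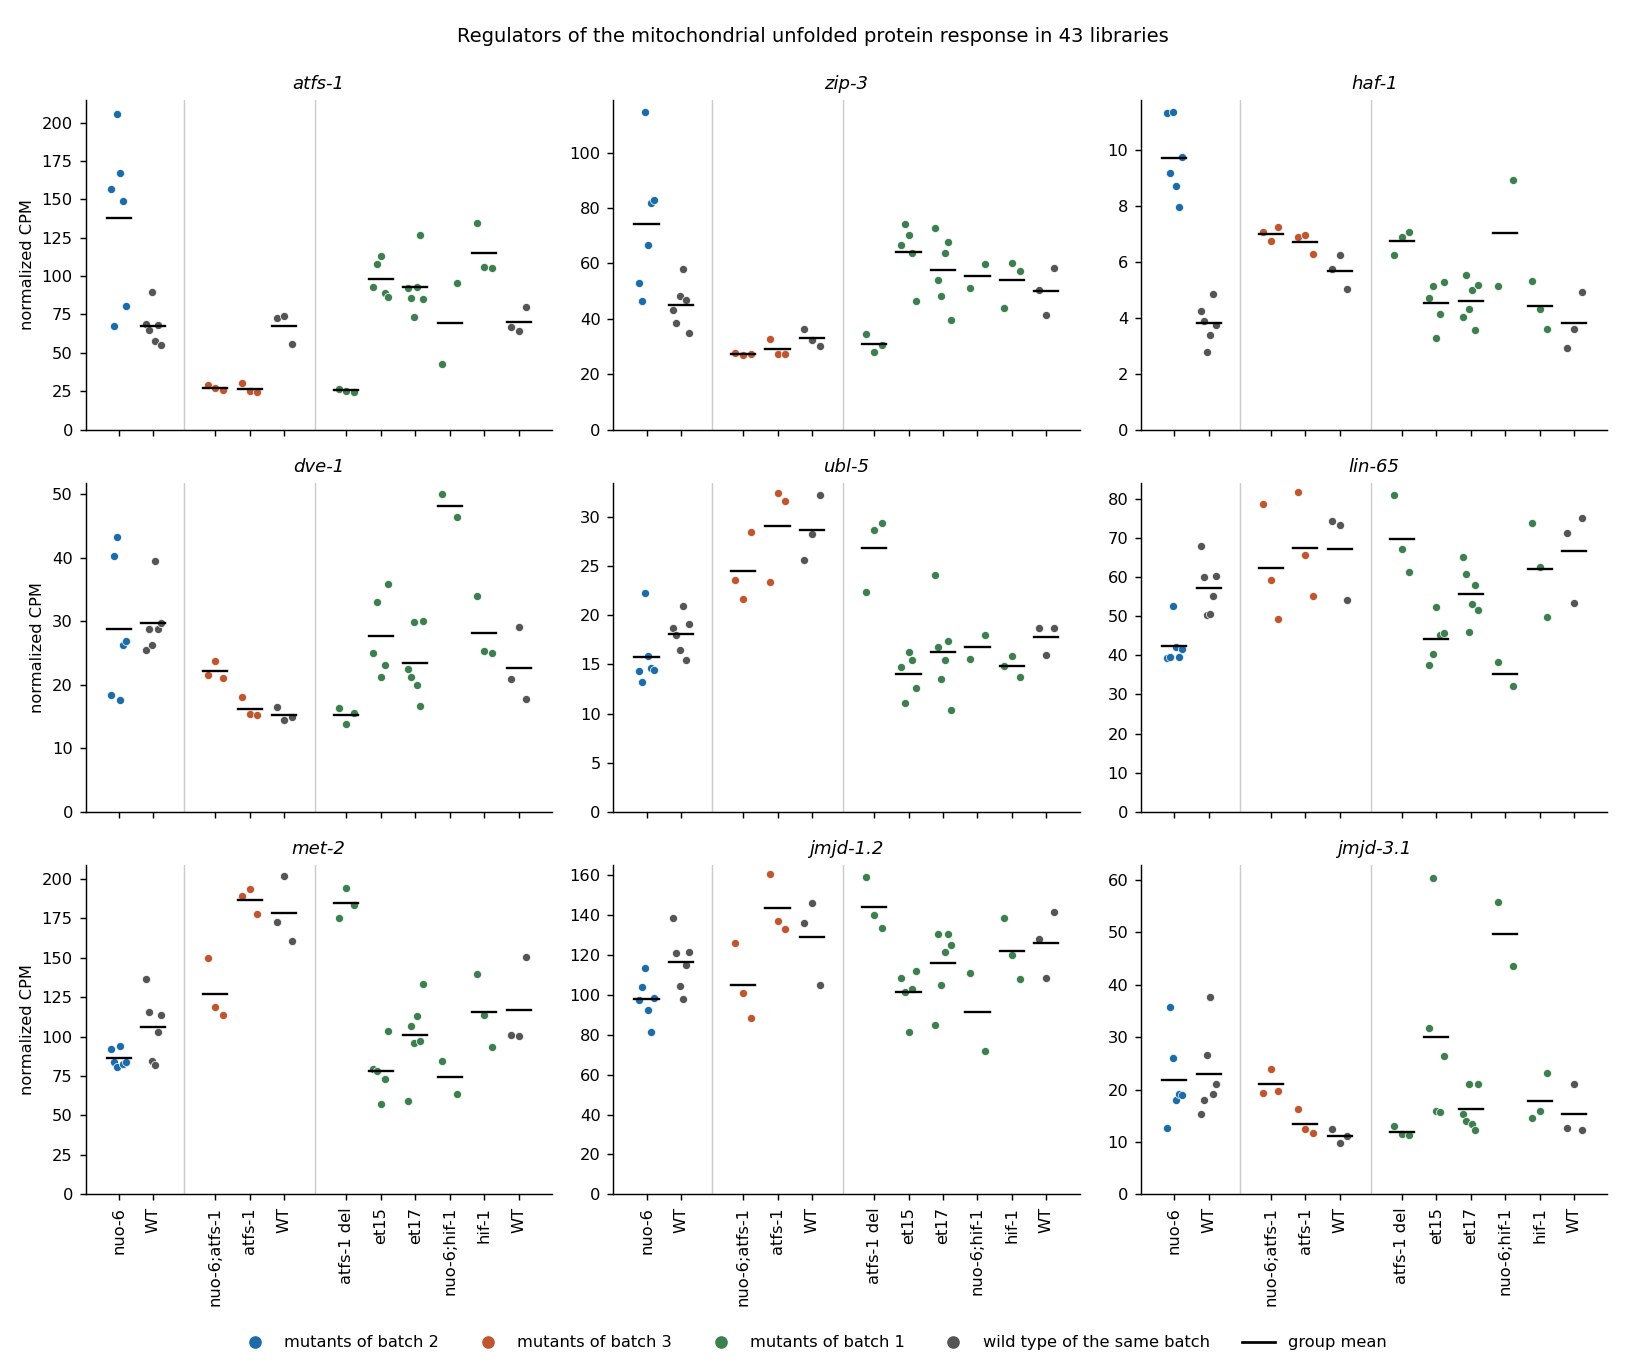
Normalized CPM of each regulator (linear axis from 0), 1 point a library, with the group mean as a bar. Mutants stand left of wild-type worms of the same batch, and *del* is the batch 1 deletion. *atfs-1* lies at 24.5 to 30.3 CPM in all 9 deletion libraries, and *haf-1* in *nuo-6* lies above every wild-type library.

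The number of regulators that differed from wild-type worms (limma, Benjamini-Hochberg adjusted p under 0.05 over all genes) was set beside the share of all genes that did so. In *nuo-6*, 3 of the 9 rose and 1 fell, where 22.4% of all genes rose and 18% fell. In *nuo-6;atfs-1*, 1 fell, *atfs-1* itself, and none rose, where 6.03% of all genes fell and 11.1% rose. In *atfs-1* of batch 3 the same gene was the only one to fall and none rose, where 0.0361% fell and 0.152% rose. In the *atfs-1* deletion of batch 1, 3 rose and 2 fell, *atfs-1* itself among these, where 18% rose and 13.8% fell. In *atfs-1(et15)* 1 rose and 2 fell, where 16.9% rose and 16.4% fell, and in *nuo-6;hif-1* 3 rose and 3 fell, where 29.8% rose and 26.2% fell. None of these counts was read as particular to the regulators.

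limma called 0 regulators in *atfs-1(et17)*, where 4.09% of all genes were called, with 0 at an unadjusted p under 0.05 and 0 by edgeR or DESeq2. It also called 0 in *hif-1*, where 0.52% were called, with 1 at an unadjusted p under 0.05 (*atfs-1*) and 0 by edgeR or DESeq2. Groups that did not overlap wild-type worms were found for 1 regulator in *nuo-6* (15.1% of all genes), 6 in *nuo-6;atfs-1* (46.4%), 2 in *atfs-1* of batch 3 (16.4%), 6 in the batch 1 deletion (55.1%), 2 in *et15* (27.1%), 0 in *et17* (8.33%), 2 in *hif-1* (9.26%) and 5 in *nuo-6;hif-1* (63.6%). The 5 strains of batch 1 share the same 3 wild-type libraries, and *nuo-6;atfs-1* and *atfs-1* of batch 3 share another 3.

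**Figure D2:**
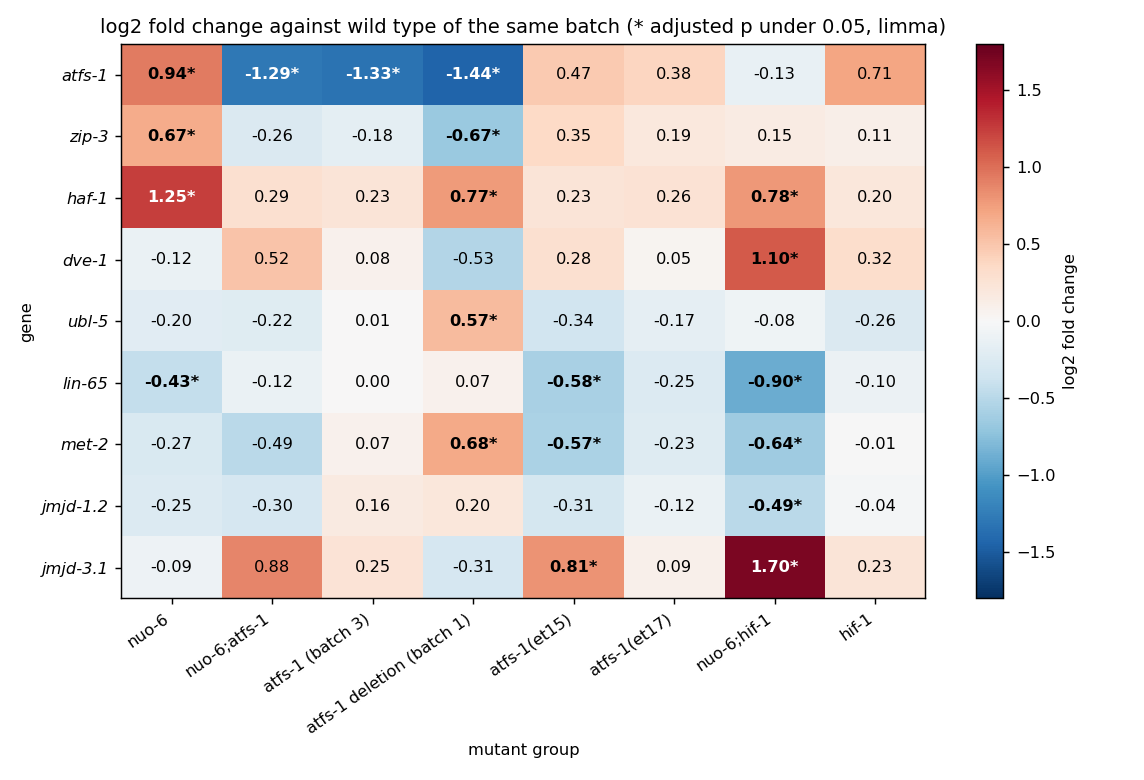
log2 fold change of each regulator (rows) in each mutant over wild-type worms of the same batch (columns), from limma on log2(normalized CPM + 0.5), with an asterisk at an adjusted p under 0.05. *atfs-1* is higher in *nuo-6* (0.94) and lower in the 3 deletion groups (-1.29, -1.33 and -1.44).

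*atfs-1* encodes the transcription factor at the centre of the response (chromosome V, 14193663 to 14197700, plus strand, WBcel235). It had 67.5 to 206 CPM in the 6 *nuo-6* libraries (median 153), against 55.3 to 89.8 CPM in wild-type worms of batch 2 (median 66.4). Replicates 1, 3, 4 and 5 of *nuo-6* had 149 CPM or more, and replicates 2 and 6, at 67.5 and 80.6 CPM, lay within the wild-type range. The log2 fold change was 0.94 ± 0.19 (SE, adjusted p = 0.000168), and it stayed past the threshold in all 25 alternatives, between 0.77 and 1.12. *nuo-6* replicate 2 was also the lowest of its group in *hsp-6* (845 CPM, against 1207 to 1977 CPM in the other 5 *nuo-6* libraries) and in the stage index (-7.20).

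In the strains with an *atfs-1* deletion the transcript was detected at a steady low level. *nuo-6;atfs-1* worms had 29.2, 26.8 and 25.6 CPM, against 72.8, 74.1 and 55.9 CPM in wild-type worms of batch 3 (log2 fold change -1.29 ± 0.27, SE, adjusted p = 0.000802). *atfs-1* worms of batch 3 had 30.3, 24.9 and 24.5 CPM, against the same wild-type libraries (-1.33 ± 0.27, adjusted p = 0.0155). With *nuo-6* added to the deletion the level did not move measurably, at 27.2 ± 1.83 CPM in *nuo-6;atfs-1* and 26.6 ± 3.22 CPM in *atfs-1* (SD, n = 3 each; log2 fold change 0.04, 95% interval -0.51 to 0.59). A gene's count cannot separate reads lost with the deleted exons from fewer transcripts. The *atfs-1* call in *atfs-1* worms of batch 3 was lost without wild-type replicate b (adjusted p = 0.145) or bl (0.152) or *atfs-1* replicate bl (0.106) or r (0.131), while the log2 fold change stayed between -1.46 and -1.26.

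The batch 1 deletion set had 26.5, 25.4 and 24.6 CPM of *atfs-1*, against 66.9, 64.1 and 79.9 CPM in wild-type worms of batch 1 (log2 fold change -1.44 ± 0.27, SE, adjusted p = 0.000324). The gain-of-function strains had levels in the other direction without passing the test. *atfs-1(et15)* had 86.3 to 113.4 CPM (0.47 ± 0.24, adjusted p = 0.128) and *atfs-1(et17)* had 73.7 to 127 CPM (0.38 ± 0.23, adjusted p = 0.513), against those 64.1 to 79.9 CPM in wild-type worms. The 5 *et15* libraries did not overlap the wild-type ones. *hsp-6* in the same strains had a log2 fold change of 1.01 ± 0.18 in *et15* (adjusted p = 4.72e-05) and 1.03 ± 0.17 in *et17* (adjusted p = 5.76e-05).

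*hif-1* worms had 135, 106 and 105 CPM of *atfs-1*, all above the 66.9, 64.1 and 79.9 CPM of wild-type worms (log2 fold change 0.71 ± 0.27, SE). This missed the threshold (adjusted p = 0.588). *hsp-6* likewise had 1139 to 1280 CPM in *hif-1*, against 627 to 787 CPM in wild-type worms of batch 1 (adjusted p = 0.108). The 2 *nuo-6;hif-1* libraries disagreed, with 42.7 and 95.7 CPM of *atfs-1*. Against *hif-1* alone they were lower by limma (-0.83 ± 0.30, adjusted p = 0.021), a call that ended without *nuo-6;hif-1* replicate 2 (-0.26, adjusted p = 0.581), without *hif-1* replicate 1 (-0.72, adjusted p = 0.083) or with the stage index as a covariate (adjusted p = 0.623). Set against *nuo-6* through wild-type worms of each batch, *nuo-6;hif-1* had lower *atfs-1* (-1.06, adjusted p = 0.0228), a call lost without *nuo-6;hif-1* replicate 2 (-0.49, adjusted p = 0.402) or wild-type replicate 3 of batch 1 (-0.97, adjusted p = 0.0656) or with the stage index as a covariate (-0.51, adjusted p = 0.588).

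*zip-3* encodes the bZIP repressor of the response (chromosome II, 13951904 to 13957457, minus strand), and 30 of its exon bases lie opposite *sre-44*. It had 46.5 to 115 CPM in *nuo-6* (median 74.1), against 34.9 to 57.8 CPM in wild-type worms of batch 2 (median 45.02). The groups overlapped through *nuo-6* replicates 1 and 2, at 52.8 and 46.5 CPM. *zip-3* rose in *nuo-6* (log2 fold change 0.67 ± 0.16, SE, adjusted p = 0.00112) and kept its call in all 25 alternatives. In *nuo-6;atfs-1* it lay at 27.8, 26.9 and 27.5 CPM, against 36.5, 32.4 and 30.3 CPM in wild-type worms of batch 3, below every one of these but within the test's error (-0.26 ± 0.23, adjusted p = 0.442). Over the 43 libraries *zip-3* followed *atfs-1* more closely than any other of the 9 (Pearson's r = 0.766 after subtracting the wild-type mean of each batch), as a description of libraries that share genotypes.

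*haf-1* encodes the mitochondrial peptide transporter (chromosome IV, 17376427 to 17379310, plus strand) and was the least abundant of the 9, with 64 of its exon bases opposite C30H6.9. Its 6 *nuo-6* libraries had 11.3, 9.16, 11.4, 8.70, 7.95 and 9.74 CPM, against 2.78 to 4.85 CPM in wild-type worms of batch 2. No *nuo-6* library overlapped any of the 12 wild-type libraries, whose highest was 6.24 CPM. The rise was 1.25 ± 0.14 on the log2 scale (SE, adjusted p = 3.49e-09), between 1.01 and 1.35 in all 25 alternatives. It was the only regulator with no overlap between *nuo-6* and wild-type worms of batch 2.

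This *nuo-6* effect on *haf-1* was not seen in worms with the *atfs-1* deletion. *nuo-6;atfs-1* worms had 7.07, 6.73 and 7.24 CPM, against 6.90, 6.95 and 6.29 CPM in *atfs-1* worms of the same batch (log2 fold change 0.06, 95% interval -0.33 to 0.45). The *nuo-6* effect with the deletion minus that without it was -1.19 ± 0.24 (SE, adjusted p = 0.000889), and this difference kept its call in all 31 alternatives, between -1.33 and -0.96. In limma *haf-1* was the only regulator of the 9 called in this interaction, as 1 lower, where 5.72% of all genes were lower and 3.61% higher. For *atfs-1* itself (-0.90 ± 0.33, adjusted p = 0.0816) and *zip-3* (-0.75 ± 0.28, adjusted p = 0.0864) the difference had the same sign and missed the threshold in limma. DESeq2 called both (-1.04, adjusted p = 0.0199, and -0.85, adjusted p = 0.0326). Without *nuo-6* replicate 2 limma called both (-1.08 and -0.87), and without *nuo-6* replicate 6 it called *atfs-1* (-1.03). Library size as the only scaling called *lin-65* (0.56, adjusted p = 0.0371). The 2 effects were each measured within a batch of their own, and batch and *atfs-1* background cannot be told apart in their difference. *haf-1* in wild-type worms was already higher in batch 3 (5.04 to 6.24 CPM) than in batch 2.

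**Figure D3:**
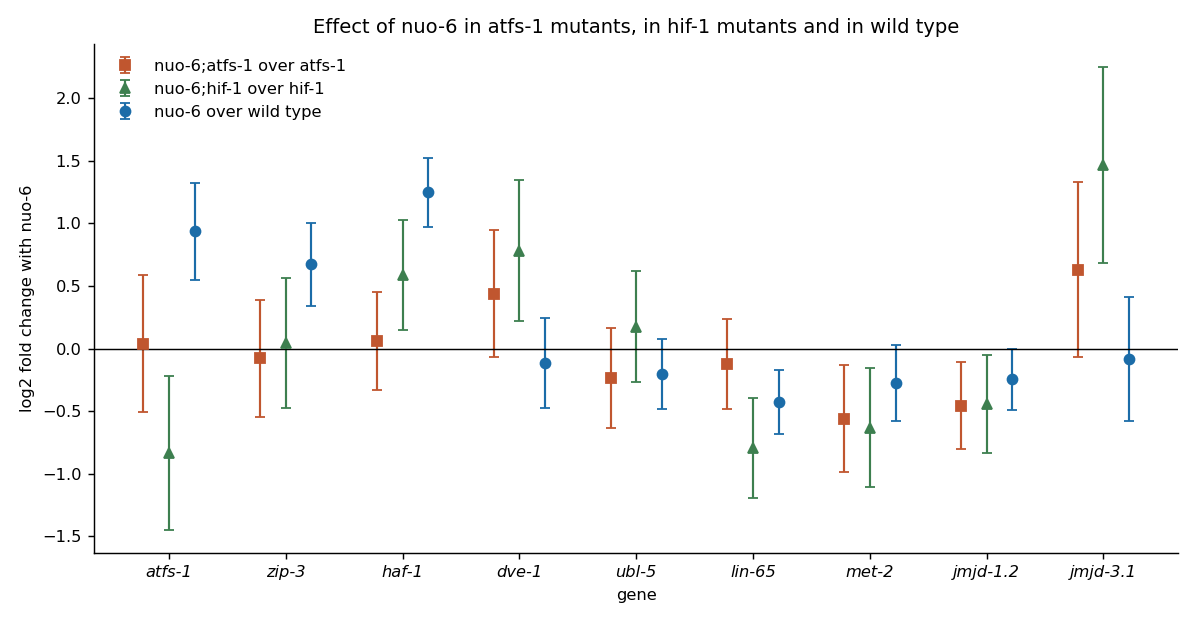
log2 fold change of each regulator with *nuo-6* added to *atfs-1* (squares, batch 3), to *hif-1* (triangles, batch 1) and to wild-type worms (circles, batch 2). Bars are 95% intervals from limma. For *haf-1* the interval in *atfs-1* worms (-0.33 to 0.45) lies wholly below that in wild-type worms (0.97 to 1.52).

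Set against *nuo-6* through wild-type worms of each batch, *nuo-6;atfs-1* had lower *atfs-1* (log2 difference -2.22 ± 0.33, SE, adjusted p = 1.5e-05), *haf-1* (-0.96 ± 0.24, adjusted p = 0.00704) and *zip-3* (-0.93 ± 0.28, adjusted p = 0.0286). These were 3 of the 9 regulators, all lower, where 5.58% of all genes were lower and 3.98% higher. Of these, *atfs-1* is the gene read as deleted in the double mutant. Its low count also served to check the labels, so it is no separate result. The other 6 lay between -0.21 (*met-2*) and 0.97 (*jmjd-3.1*) and missed the threshold. The *haf-1* call ended with library size as the only scaling (-0.76, adjusted p = 0.0587). The *zip-3* call ended without wild-type replicate b or bl of batch 3 or any 1 of the 3 *nuo-6;atfs-1* libraries, at -0.95 to -0.86 with adjusted p between 0.0534 and 0.0773.

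*haf-1* in the other strains was less separate. *nuo-6;hif-1* had 5.13 and 8.91 CPM, against 2.91, 3.59 and 4.92 CPM in wild-type worms of batch 1 (log2 fold change 0.78 ± 0.22, SE, adjusted p = 0.00287). Without *nuo-6;hif-1* replicate 3 this was 0.41 (adjusted p = 0.18). It was the only 1 of the 6 regulators called in *nuo-6;hif-1* that kept its call with the stage index as a covariate. The levels in *atfs-1(et15)* (3.28 to 5.29 CPM), *atfs-1(et17)* (3.57 to 5.53 CPM) and *hif-1* (3.60 to 5.32 CPM) overlapped those of wild-type worms. The intervals of their log2 fold changes reached no higher than 0.60, below the interval of *nuo-6*.

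In the batch 1 deletion set *haf-1* (6.24, 6.90 and 7.06 CPM), *ubl-5* (22.4, 28.7 and 29.4 CPM) and *met-2* (175, 194 and 183 CPM) were higher and *zip-3* (34.6, 28.1 and 30.4 CPM) lower than in wild-type worms of batch 1. Those had 2.91 to 4.92 CPM of *haf-1*, 16.0 to 18.8 CPM of *ubl-5*, 100 to 150 CPM of *met-2* and 41.5 to 58.3 CPM of *zip-3*. Each of these groups was fully separate from its wild-type worms. The log2 fold changes were 0.77 ± 0.19 for *haf-1* (SE, adjusted p = 0.00396), 0.57 ± 0.20 for *ubl-5* (0.0257), 0.68 ± 0.21 for *met-2* (0.0149) and -0.67 ± 0.23 for *zip-3* (0.025). The *haf-1* call survived leaving out any 1 library. The other 3 did not: *ubl-5* was lost without wild-type replicate 2 or deletion replicate 2 or 3, by edgeR (adjusted p = 0.0641) and when only batch 1 was fitted (0.0525), *met-2* without wild-type replicate 1 or 2 or deletion replicate 2, and *zip-3* without wild-type replicate 1 or 3 or deletion replicate 2 or 3, with adjusted p between 0.0588 and 0.128 for the left-out libraries. *dve-1*, not called by limma (-0.53, adjusted p = 0.0962), was called by edgeR (-0.69, adjusted p = 0.0409) and with the stage index as a covariate (-0.73, adjusted p = 0.00492), as was *jmjd-3.1* with the index (-0.75, adjusted p = 0.00088). *dve-1* was also called with the replicate block (adjusted p = 0.0204) and without wild-type replicate 3 (0.049). Markers of other cells moved with this group, where 18% of all genes rose and 13.8% fell. All 4 muscle genes were lower, with a summed level of 3203 to 6410 CPM in the deletion set, against 10433 to 12023 CPM in wild-type worms of batch 1 and 2714 to 4970 CPM in those of batch 3, and none was at 0. Of 12 sperm genes 4 were lower and of 10 molting genes 4 were higher. In *atfs-1* worms of batch 3 against their own wild-type worms, the log2 fold changes of the same 4 muscle genes lay between 0.035 and 0.30. The part of these markers in the result was not tested. Set against wild-type worms of batch 3 the same libraries gave 0.23, -0.10, 0.05 and -0.09 for these genes, and *atfs-1* was the only regulator still called. The *atfs-1* libraries of batch 3, tested in their own batch, gave 0.23, 0.01, 0.07 and -0.18. The effect of the deletion in batch 3 minus that in batch 1 passed the test for 0 of the 9 by limma, edgeR or DESeq2 (1, *met-2*, at an unadjusted p under 0.05), among 1.19% of all genes.

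**Figure D4:**
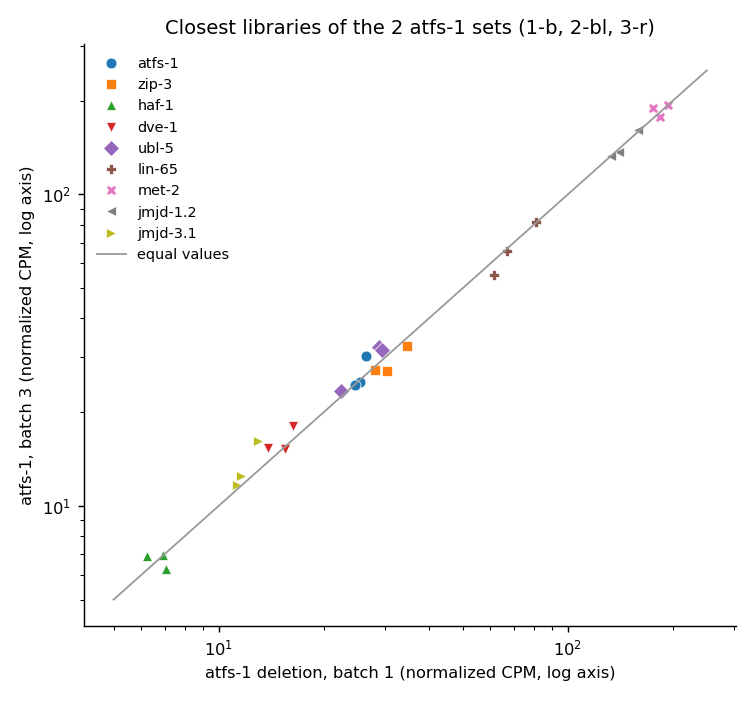
Normalized CPM of the 9 regulators in the *atfs-1* libraries of batch 3 (vertical, log axis) against their most similar libraries of the batch 1 deletion set (horizontal, log axis), 3 points a gene. The line marks equal values, and the points of all 9 genes lie along it. The pairs were picked as most similar over all genes, so this is no separate result for the regulators.

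*dve-1* and *ubl-5* (chromosome X, 427035 to 433812, minus strand, and chromosome I, 5607826 to 5608841, minus strand) encode the nuclear partners of the response. *dve-1* had 17.6 to 43.3 CPM in *nuo-6* (median 26.6), against 25.6 to 39.6 CPM in wild-type worms of batch 2 (median 28.8), with no difference detected (log2 fold change -0.12, 95% interval -0.47 to 0.24). *ubl-5* had 13.2 to 22.3 CPM in *nuo-6* (median 14.6), against 15.4 to 20.9 CPM in wild-type worms (-0.20, interval -0.49 to 0.08). Neither partner of this pair passed the test in *nuo-6*, where *atfs-1*, *haf-1* and *zip-3* passed as higher and *lin-65* as lower.

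*dve-1* stood out in *nuo-6;hif-1*, with 50.01 and 46.4 CPM, against 21.0, 29.1 and 17.8 CPM in wild-type worms of batch 1. These were the 2 highest values of the gene over all 43 libraries (log2 fold change 1.102 ± 0.278, SE, adjusted p = 0.00135). Set against *nuo-6* through wild-type worms, where *nuo-6;hif-1* had 2 regulators higher and 1 lower beside 16% and 13.5% of all genes, *dve-1* differed by 1.22 ± 0.33 (adjusted p = 0.00533). With the stage index as a covariate the values were 0.32 (adjusted p = 0.558) and 0.32 (adjusted p = 0.69). Over the 12 wild-type libraries, pooled over batches with no batch mean subtracted, *dve-1* and the index had a Pearson's r of -0.69. Both *nuo-6;hif-1* libraries had an index under every wild-type one, so the covariate cannot separate stage from genotype there. In *nuo-6;atfs-1*, *dve-1* had 21.5, 23.8 and 21.1 CPM, against 16.5, 14.4 and 14.99 CPM in wild-type worms of batch 3, fully separate but not past the threshold (0.52 ± 0.25, adjusted p = 0.147). That comparison passed when only batch 3 was fitted (adjusted p = 0.00509).

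*lin-65* and *met-2* (chromosome I, 1755329 to 1766400, plus strand, and chromosome III, 8375300 to 8380848, plus strand) act together on chromatin. *lin-65* had 39.4 to 52.5 CPM in *nuo-6* (median 40.6), against 50.2 to 67.8 CPM in wild-type worms of batch 2 (median 57.5). It fell by 0.43 on the log2 scale (SE 0.12, adjusted p = 0.00615) and was lower in all 25 alternatives. *nuo-6* replicate 3, at 52.5 CPM, was the only one to reach the wild-type range. *met-2* had 80.7 to 94.2 CPM in *nuo-6*, against 82.3 to 136 CPM in wild-type worms (-0.27 ± 0.15, adjusted p = 0.138).

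Both were also lower in the strains with a low stage index. *lin-65* had 37.6, 40.3, 52.2, 45.1 and 45.8 CPM in *atfs-1(et15)* and 38.2 and 32.2 CPM in *nuo-6;hif-1*, all under the 71.3, 53.3 and 75.1 CPM of wild-type worms of batch 1. Its log2 fold changes were -0.58 ± 0.16 (SE, adjusted p = 0.00516) and -0.90 ± 0.20 (adjusted p = 0.000368). *met-2* had 57.5 to 104 CPM in *et15* (-0.57 ± 0.19, adjusted p = 0.0183) and 84.3 and 63.9 CPM in *nuo-6;hif-1* (-0.64 ± 0.24, adjusted p = 0.0203), against 101, 100 and 150 CPM in wild-type worms. With the stage index as a covariate the 4 adjusted p values were 0.493, 0.287, 0.619 and 0.85, in this order of gene and strain. The index of both strains lay under that of wild-type worms of batch 1, so stage and genotype cannot be told apart there. In *nuo-6* the *lin-65* call held with the index as a covariate, and the index of *nuo-6* (-7.20 to 4.51) overlapped that of its wild-type worms (-10.4 to 1.201).

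The *et15* calls of *lin-65* (-0.48, adjusted p = 0.0592) and *met-2* (-0.38, 0.208) were lost without wild-type replicate 3, as was *met-2* without *et15* replicate 4 (-0.47, 0.0528). In *nuo-6;hif-1* the *met-2* call was lost without wild-type replicate 3 (-0.45, 0.133) or *nuo-6;hif-1* replicate 3 (-0.44, 0.213). Germline transcripts moved in the same groups. Of 8 germline genes 7 were lower in *nuo-6;hif-1*, 6 in *et15* and 4 in *nuo-6*, where 26.2%, 16.4% and 18% of all genes were lower, and none was at 0. Their summed level was 966 to 1017 CPM in *nuo-6;hif-1*, 1136 to 1928 CPM in *et15* and 1202 to 1553 CPM in *nuo-6*, against 2051 to 2738 CPM in wild-type worms of batch 1 and 1737 to 2690 CPM in those of batch 2. The part of germline transcripts in the lower *lin-65* and *met-2* was not tested. In *nuo-6;atfs-1*, *met-2* had 150, 118.7 and 114 CPM, against 189, 193 and 178 CPM in *atfs-1* worms (-0.56 ± 0.21, adjusted p = 0.0694). It was called by DESeq2 (adjusted p = 0.0336), when only batch 3 was fitted (0.00701), with both deletion sets as 1 group (0.00996) and without *nuo-6;atfs-1* replicate b (0.0455). Wild-type worms of batch 3 had 161 to 201 CPM, also without overlap (-0.49 ± 0.21, adjusted p = 0.103). That comparison passed by DESeq2 (0.047) and when only batch 3 was fitted (0.0113).

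*jmjd-1.2* and *jmjd-3.1* (chromosome IV, 4660991 to 4665212, plus strand, and chromosome X, 8571047 to 8575451, plus strand) encode the demethylases, and they differed in how much they varied. *jmjd-1.2* had 81.6 to 114 CPM in *nuo-6*, against 98.0 to 139 CPM in wild-type worms of batch 2 (log2 fold change -0.25 ± 0.12, SE, adjusted p = 0.101). Its only call against wild-type worms was in *nuo-6;hif-1*, with 111 and 71.6 CPM, against 128, 108 and 142 CPM in wild-type worms of batch 1 (-0.49 ± 0.19, adjusted p = 0.0306). It was lost without *nuo-6;hif-1* replicate 3 (-0.17, adjusted p = 0.554) or wild-type replicate 1 (-0.47, 0.0655) or 3 (-0.40, 0.117).

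*jmjd-3.1* had the largest fold change of the 9 against wild-type worms in any strain. It had 55.7 and 43.6 CPM in *nuo-6;hif-1*, against 12.6, 21.0 and 12.4 CPM in wild-type worms of batch 1 (log2 fold change 1.70 ± 0.39, SE, adjusted p = 0.000523). *atfs-1(et15)* had 31.7, 60.3, 15.9, 15.7 and 26.5 CPM, overlapping wild-type worms (0.81 ± 0.31, adjusted p = 0.0417). The *et15* value rests largely on replicate 3, without which it was 0.51 (adjusted p = 0.177), and was also lost without *et15* replicate 2 or 6 or wild-type replicate 1 or 3 (0.68 to 0.80, adjusted p between 0.0558 and 0.19) and when the batch 1 deletion libraries were left out of the fit (adjusted p = 0.0502). In *nuo-6* it had 12.7 to 35.7 CPM, against 15.4 to 37.7 CPM in wild-type worms of batch 2 (-0.09, 95% interval -0.58 to 0.41). *nuo-6;atfs-1* had 19.2, 23.9 and 19.8 CPM, against 12.6, 9.82 and 11.1 CPM in wild-type worms of batch 3, fully separate but not past the threshold (0.88 ± 0.35, adjusted p = 0.0728). It passed when only batch 3 was fitted (adjusted p = 0.00126) and with the replicate block (0.0225).

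The level of *jmjd-3.1* followed the stage index closely. Pearson's r between them was -0.83 over 43 libraries, with the wild-type mean of each batch subtracted. Over the 12 wild-type libraries, pooled over batches with no batch mean subtracted, it was -0.84. The weights of the index were set in those same 12 libraries. Wild-type replicate 7 of batch 2, with the lowest index of its genotype (-10.4), had the highest *jmjd-3.1* of any wild-type library (37.7 CPM). With the index as a covariate the log2 fold change of *jmjd-3.1* was -0.04 (adjusted p = 0.948) in *nuo-6;hif-1* and -0.46 (adjusted p = 0.132) in *et15*. No library of these strains reached the index of wild-type worms of batch 1, so this fit cannot separate stage from genotype. The part of stage in these values was not tested. For *lin-65* and *jmjd-1.2* the r over wild-type libraries, pooled over batches in the same way, was 0.87 and 0.84. For *atfs-1*, *zip-3* and *haf-1* it was 0.29, -0.06 and 0.41.

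**Figure D5:**
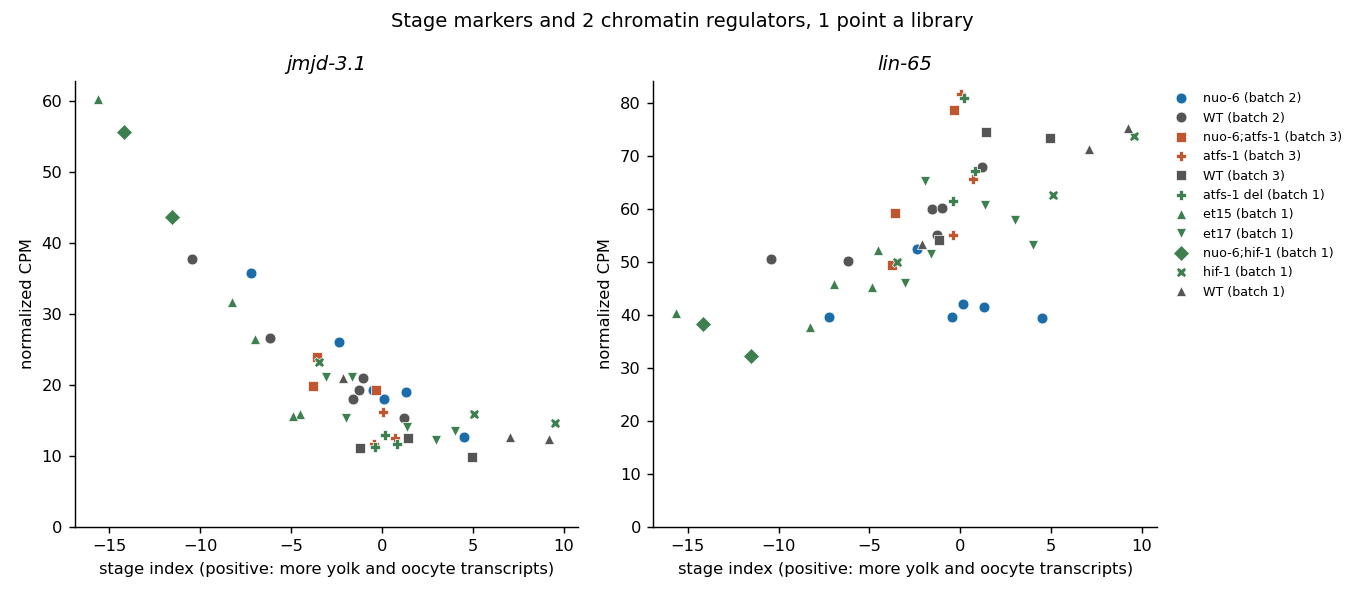
Normalized CPM of *jmjd-3.1* and *lin-65* (linear axis from 0) against the stage index, 1 point a library. *jmjd-3.1* is highest at the lowest index values, in *et15* and *nuo-6;hif-1*, and *lin-65* in *nuo-6* lies at 39.4 to 52.5 CPM over an index between -7.20 and 4.51.

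The 2 gain-of-function alleles were compared directly in the same batch. limma called 0 of the 9 regulators between *et15* and *et17*, where 11.4% of all genes were called, with 3 at an unadjusted p under 0.05 (*lin-65*, *met-2* and *jmjd-3.1*) and 1 by edgeR and by DESeq2 (*jmjd-3.1*). *jmjd-3.1* had 15.7 to 60.3 CPM in *et15* and 12.2 to 21.1 CPM in *et17* (log2 difference 0.72 ± 0.26, SE, adjusted p = 0.0607). *atfs-1* differed by 0.09 between them (95% interval -0.32 to 0.50), and the 2 groups overlapped for all 9 regulators, while 6.86% of all genes did not overlap.

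Adding *nuo-6* to *atfs-1* worms gave 0 calls by limma and edgeR and 2 by DESeq2, where limma called 14.3% of all genes, with 2 at an unadjusted p under 0.05 (*met-2* and *jmjd-1.2*). The groups did not overlap for 4 regulators, *dve-1*, *met-2*, *jmjd-1.2* and *jmjd-3.1*, nor for 49.3% of all genes. Adding *nuo-6* to *hif-1* worms gave 3 regulators higher (*dve-1*, *haf-1* and *jmjd-3.1*) and 3 lower (*atfs-1*, *lin-65* and *met-2*), where 28% of all genes were higher and 23.9% lower. Groups without overlap numbered 5 there, beside 61.7% of all genes. The log2 fold changes were 1.46 for *jmjd-3.1* (adjusted p = 0.00229), 0.78 for *dve-1* (0.0187), 0.58 for *haf-1* (0.023), -0.80 for *lin-65* (0.00137) and -0.63 for *met-2* (0.0242). Only *jmjd-3.1* and *lin-65* kept their calls whichever library was left out, and both lost them with the stage index as a covariate (-0.17, adjusted p = 0.765, and -0.30, adjusted p = 0.465), where *dve-1* was 0.04 (0.959) and *met-2* -0.13 (0.846). *haf-1* kept its call with the index (0.87, adjusted p = 0.0407) and lost it with library size as the only scaling (adjusted p = 0.0512). *dve-1* was lost without *hif-1* replicate 2 or 3 or either *nuo-6;hif-1* library (0.70 to 0.83, adjusted p between 0.0511 and 0.101). *haf-1* was lost without *hif-1* replicate 3 or *nuo-6;hif-1* replicate 3 (0.46 and 0.21), and *met-2* without *hif-1* replicate 1 or *nuo-6;hif-1* replicate 3 (-0.49 and -0.43).

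Effector genes of the response, its chaperones and other downstream genes, were read in the same strains. Of 10 effector genes, 7 rose and 1 fell in *nuo-6*, where 22.4% of all genes rose and 18% fell. Their median log2 fold change was 0.61, against -0.03 over all genes. The highest was *cyp-14A4*, a cytochrome P450 (5.19), and the lowest *hsp-60*, the mitochondrial Hsp60 chaperonin (-0.57). In *nuo-6;atfs-1* 1 rose and 3 fell, where 11.1% of all genes rose and 6.03% fell (median -0.36, against -0.04). In *et15* 8 rose, where 16.9% of all genes rose. In *et17* 5 rose, where 4.09% of all genes were called in either direction. The medians of these 2 strains were 0.75 and 0.54, against -0.04 and -0.02 over all genes. *hsp-6* had 845 to 1977 CPM in *nuo-6*, against 649 to 978 CPM in wild-type worms of batch 2, and 398 to 554 CPM in *nuo-6;atfs-1*, against 530 to 711 CPM in wild-type worms of batch 3.

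Relatives of the regulators were counted beside the 22.4% of all genes that rose and the 18% that fell in *nuo-6*. Of 13 further genes known to act on the response, 2 rose and 2 fell in *nuo-6* (median -0.17). The highest was *timm-23*, the channel of the inner membrane import complex (0.93 ± 0.12, SE, adjusted p = 1.28e-07), which was 0.84 in *et15* and 0.69 in *et17*, both called, and 0.03 when *nuo-6* was added to *atfs-1* worms. Of 6 tested HAF transporters related to *haf-1*, 1 rose in *nuo-6*: *haf-3* (0.77 ± 0.15, adjusted p = 5.85e-05). *haf-3* also rose in *et15* (0.75) and *et17* (0.62), and the *nuo-6* effect with the *atfs-1* deletion minus that without it was -1.17 ± 0.25 for it (adjusted p = 0.0022). Of 18 tested bZIP factors, 8 rose in *nuo-6* (median 0.47), with *zip-6* the highest (1.85). Of 6 tested relatives of the histone enzymes, 2 fell in *nuo-6*, with *set-25*, a histone methyltransferase, the lowest (-0.78 ± 0.19, adjusted p = 0.00152).

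Over the 43 libraries, with the wild-type mean of each batch subtracted, the gene whose level was most like that of *atfs-1* among all 13837 was *hsp-6* (Pearson's r = 0.805). *haf-1* was most like *ethe-1* (0.872), *zip-3* most like *dld-1* (0.888), *dve-1* most like *puf-9* (0.897) and *ubl-5* most like *mag-1* (0.878). The chromatin regulators had still closer neighbours: *met-2* with K10D2.1 (0.983), *lin-65* with *npp-9* (0.970), *jmjd-3.1* with *unc-83* (0.955) and *jmjd-1.2* with *cec-6* (0.932). Among the regulators themselves, *met-2* and *jmjd-1.2* (0.847) and *dve-1* and *jmjd-3.1* (0.841) were the closest pairs. These r describe libraries that share genotype, batch and stage.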

How the data were processed

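Whole-worm poly(A) RNA was sequenced from 43 libraries. The authors aligned reads to WBcel235 with STAR (2.5.2b in their processing notes) and counted them per gene. They deposited CPM of 46739 genes and normalized values of 13837 filtered genes. In the deposited normalized table the unit is a signal: each library's CPM times 1 constant, called normalized CPM here. Columns outside the sample list numbered 0. Whole reads were recovered from 100.0% of the deposited CPM (tolerance 0.01 read) for alternatives.

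log2(normalized CPM + 0.5) was tested in 1 limma 3.58.1 fit (R 4.3.3; trend, empirical Bayes) of all libraries with genotype and additive batch, so that each mutant is set against wild-type worms of its batch (32 residual degrees of freedom). Fold changes on this scale understate changes of low genes. Benjamini-Hochberg adjusted p under 0.05 over all 13837 genes was called. All 9 regulators are named whatever their result, with list genes only where highest or lowest in a comparison and, for each regulator, its most similar gene. Members and lists were chosen with earlier results of these data known. Replicates are stated to be independently isolated RNA. Labels were taken as pairing where groups shared at least 3 of them and every same-labelled r of deviations was above 0.1. Only *atfs-1* and wild-type worms of batch 3 met this rule (r 0.446 to 0.693), and there a replicate block changed no call among the 9. *atfs-1(et17)* and *nuo-6;hif-1*, which shared 2 labels, had r of 0.192 and 0.290. Alternatives used edgeR 4.0.16, DESeq2 1.42.0, pseudocounts, filters, scaling, a replicate block, a stage covariate and left-out libraries. Fits were tested on simulated data. Coordinates and exon lengths follow an Ensembl gene set for WBcel235 newer than that of the authors. Figures and checks used matplotlib 3.10.9, scipy 1.17.1, pandas 2.3.3 and numpy 2.4.6 in Python 3.11.15.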

Additional observations from a re-analysis of the deposited data

Results flagged for a closer look

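In 36 group-by-gene sets of 5 or 6 libraries, 4 had 1 library farther from the rest than Dixon's criterion allows, where chance flags about 1 in 20. These were *atfs-1* in *atfs-1(et17)* replicate 5 (127 CPM, next 92.8), *dve-1* in wild-type replicate 7 of batch 2 (39.6, next 29.7), and *ubl-5* (22.3, next 15.9) and *lin-65* (52.5, next 42.0) in *nuo-6* replicate 3.

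Double mutants differed from *nuo-6* by the test of the difference itself, which holds the second mutation's own effect as well. Through wild-type worms of each batch, *nuo-6;atfs-1* minus *nuo-6* was -2.22 for *atfs-1*, -0.96 for *haf-1* and -0.93 for *zip-3* (log2, limma adjusted p = 1.5e-05, 0.00704 and 0.0286). Of these, *atfs-1* is the gene read as deleted. The effect of *nuo-6* itself, with minus without the deletion, differed for *haf-1* by -1.19 (adjusted p = 0.000889), while limma did not call that difference for *atfs-1* (-0.90, adjusted p = 0.0816) or *zip-3* (-0.75, adjusted p = 0.0864). *nuo-6;hif-1* minus *nuo-6* was -1.06 for *atfs-1*, 1.22 for *dve-1* and 1.78 for *jmjd-3.1* (adjusted p = 0.0228, 0.00533 and 0.00345).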

How the results depend on the processing

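In 71 runs, 2887 single-gene values stayed on their side of the threshold, 58 gained a call and 92 lost one. A further 5, called in the main or the alternative fit, turned direction. Values called in neither fit were counted among the 2887 whatever their direction. The fit of only the batches compared counts there as 1 run for each comparison, and each left-out library as 1 run. Without 1 library at a time, the number of the 9 regulators called ranged between 4 and 4 for *nuo-6*, 1 and 1 for *nuo-6;atfs-1*, 0 and 1 in *atfs-1* of batch 3, 2 and 5 in the batch 1 deletion, 0 and 3 in *et15*, 0 and 0 in both *et17* and *hif-1*, and 3 and 6 in *nuo-6;hif-1*, each against wild-type worms. It ranged between 0 and 2 for *nuo-6;atfs-1* against *atfs-1*, 3 and 5 for *nuo-6;hif-1* against *hif-1*, 0 and 2 for *et15* against *et17*, 2 and 3 for *nuo-6;atfs-1*, and 2 and 4 for *nuo-6;hif-1*, against *nuo-6* through wild-type worms, 1 and 3 for the *nuo-6* by *atfs-1* interaction and 0 and 0 for the deletion between batches.

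With the stage index as a covariate the count was 6 in *nuo-6* (*met-2* and *jmjd-1.2* gained, adjusted p = 0.0303 and 0.0281) and 7 in the batch 1 deletion, 0 in *et15* against wild-type worms, 1 in *nuo-6;hif-1* against wild-type worms and 1 against *hif-1*, 0 against *nuo-6* through wild-type worms, and 1 for the deletion between batches. *jmjd-3.1* then turned direction, to -0.46 in *et15* and, in *nuo-6;hif-1*, to -0.041 against wild-type worms, -0.17 against *hif-1* and -0.20 against *nuo-6* through wild-type worms. The batch 1 deletion set against wild-type worms of batch 3 gave 1 call, with *ubl-5* turned to -0.10. That setting, and a fit without the batch 1 deletion libraries, were chosen after seeing the data.

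Taking the deletion libraries of both batches as 1 group gave 2 calls for each deletion set against wild-type worms, 5 in *et15* against wild-type worms and 2 for *nuo-6;atfs-1* against *atfs-1*, and left no deletion comparison between batches. Fitting only the batches compared gave 4 calls in *nuo-6;atfs-1* against wild-type worms, 4 against *atfs-1*, and 1 in *et15* against wild-type worms. DESeq2 gave 2 in *nuo-6;atfs-1* against wild-type worms, 2 against *atfs-1*, 1 for *et15* against *et17* and 3 for the interaction. edgeR gave 1 for *et15* against *et17*. Library size as the only scaling gave 1 for *et15* against *et17* and 2 for the interaction. At an adjusted p under 0.01 the counts were 0 in *atfs-1* of batch 3, 2 in the batch 1 deletion, 1 in *et15* and 2 for *nuo-6;hif-1* against *hif-1*. The cause of these changes was not tested. All counts in this section stand without the share of all genes called under the same setting. None was read as particular to the regulators.

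The replicate block gave 3 calls in *nuo-6;atfs-1*, 6 in the batch 1 deletion and 4 in *et15*, each against wild-type worms. It gave 1 for *et15* against *et17* and 2 for the interaction, where it added *zip-3* (adjusted p = 0.0103). With it *nuo-6;hif-1* against *nuo-6* through wild-type worms lost *atfs-1* (adjusted p = 0.0822) and gained *zip-3* (0.0424), and *nuo-6;hif-1* against *hif-1* lost *haf-1* (0.0521). In those comparisons at least 1 same-labelled pair of libraries had a correlation of deviations under 0.1, so the labels were not taken as pairing.

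With 2 or 3 libraries in most groups, moderate changes of genes with wide spread can be missed. Stage markers, batch and the similarity of the deletion sets also limit the comparisons.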
